A study of Homo sapiens with 6 samples.

Results

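The genes described here encode the lysosome and its proton pump in U-2 OS cells, a human osteosarcoma line, 24 h after a dose of 4 Gy of ionizing radiation (IR). They were chosen by name as 51 of the 21447 genes in the libraries, and comprised 5 lysosomal membrane proteins, 11 cathepsins and peptidases, 14 glycosidases and sulfatases, 4 genes for lipid breakdown, the transcription factors TFEB and TFE3, and 15 subunits or accessory proteins of the vacuolar ATPase (V-ATPase). Bulk RNA-seq compared 3 untreated libraries with 3 libraries of irradiated cells, all of 1 line, to find which genes changed after DNA damage. Neither group carries a stated genetic change. The study describes 3 independent samples per group, but the labels do not say that the libraries came from separate cultures. The p-values therefore measure the spread between these libraries, which may be technical.

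Lysosomes are acidic organelles in which enzymes take apart proteins, glycans, glycolipids and whole organelles delivered by endocytosis and autophagy. The V-ATPase keeps them acidic: its V1 sector hydrolyses ATP in the cytosol and its V0 sector carries protons across the membrane. TFEB and TFE3 bind a short E-box motif in the promoters of many of these genes and are held in the cytosol by mTORC1, the nutrient-sensing kinase at the lysosomal surface.

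The libraries held between 18573309 and 22953834 estimated counts, apart from IR replicate 3 with 45308792. IR replicate 3 also stood apart in its values for several of the genes below, and changes without it are given for many of them, not all. CDKN1A, the cell cycle inhibitor induced by p53, rose in the IR libraries (log2 fold change 1.53, SE 0.08), as did MDM2, the p53 antagonist (0.60, SE 0.06). Of the mesenchymal markers, VIM, FN1, SPARC, COL1A1, CDH2 and THY1 were between 221 and 3509 CPM (counts scaled to a library total of 1000000) in every library, whereas COL1A2 was at 0.977 to 2.14 CPM. The osteoblast markers SP7, IBSP and BGLAP held 0, 7 and 23 counts over the 6 libraries, and the others moved with treatment: RUNX2 was at 15.5 to 16.1 CPM and then 11.3 to 13.9 CPM after IR (-0.36, adjusted p = 0.025), and ALPL at 1.70 to 2.14 CPM and then 3.05 to 4.95 CPM (1.09, adjusted p = 0.00716). Of the epithelial markers EPCAM, CLDN4 and CDH1 were at 1.87 to 10.6 CPM and KRT19 held 1 count. CDH1 was at 1.87 to 2.35 CPM and then 2.77 to 3.43 CPM (0.61, adjusted p = 0.0465). The part of these 3 markers in the results below was not tested. The blood cell markers CD3E, CD79A, CD14 and LYZ held 0 to 16 counts and PTPRC was at 0.753 to 1.76 CPM.

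Promoter sequence was examined first, since the E-box is what the family is known for. RefSeq promoters of 300 bases, 250 before and 50 after the start site, were found for 36 of the 51 genes. CACGTG, which reads the same on both strands, was present in 11 of these 36 (30.6%), in 7.43% of all 27305 promoters and in 9.93% of the 11243 promoters of genes tested for expression. The longer TCACGTGA, which contains CACGTG, was present in 6 of 36 (16.7%) against 1.04% of all promoters and 1.86% of those of tested genes. The palindrome of 10 bases that adds a G before and a C after it was present in 3 of 36 (8.33%) against 0.381% and 0.756%. A match describes letters in this window and is not evidence of binding.

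LAMP1, which encodes a major glycoprotein of the lysosomal membrane, had 6 copies of CACGTG in its window, 5 of them before the start site, and MCOLN1, the lysosomal calcium channel, had 2. The 250 bases before their start sites are shown 5′ to 3′ on the plus strand of GRCh38.p14, at chr13:113296989-113297238 for LAMP1 and chr19:7522374-7522623 for MCOLN1, with CACGTG in capitals.
LAMP1: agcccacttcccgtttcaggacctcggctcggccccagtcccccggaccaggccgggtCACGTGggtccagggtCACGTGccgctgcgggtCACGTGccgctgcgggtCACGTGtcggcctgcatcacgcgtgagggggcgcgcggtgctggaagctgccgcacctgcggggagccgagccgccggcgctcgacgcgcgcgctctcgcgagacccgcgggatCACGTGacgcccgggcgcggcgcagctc
MCOLN1: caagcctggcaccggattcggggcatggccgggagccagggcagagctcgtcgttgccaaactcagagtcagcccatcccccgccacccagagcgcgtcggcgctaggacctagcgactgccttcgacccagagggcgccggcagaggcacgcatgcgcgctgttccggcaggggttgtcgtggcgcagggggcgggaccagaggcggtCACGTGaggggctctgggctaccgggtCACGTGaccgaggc

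Shorter windows of 30 bases on the gene's own strand show how alike the motif looked in genes whose RNA behaved differently. GAA, NEU1, CTSD and ATP6V0D1 were higher after IR and ATP6V1G1 did not pass the test. The windows lie at chr17:80101493-80101522 and chr17:80101538-80101567 (plus strand, GAA), chr6:31862930-31862959 (minus strand, NEU1), chr11:1763957-1763986 (minus strand, CTSD), chr16:67481199-67481228 (minus strand, ATP6V0D1) and chr9:114587699-114587728 (plus strand, ATP6V1G1).
GAA at -76: gggaggccgcgtCACGTGacccaccgcggc
GAA at -31: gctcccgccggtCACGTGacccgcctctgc
NEU1 at -126: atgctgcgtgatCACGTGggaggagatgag
CTSD at -47: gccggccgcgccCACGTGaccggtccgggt
ATP6V0D1 at -59: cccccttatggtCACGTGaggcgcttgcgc
ATP6V1G1 at -58: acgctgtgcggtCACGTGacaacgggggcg
The numbers give the first base of the motif relative to the start site. Both GAA copies and the ATP6V1G1 copy extend to the 10-base palindrome.

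All 51 genes passed the filter on low counts. In the IR libraries 28 of them were higher at an adjusted p-value under 0.05 (54.9%), when 15.5% of all 14323 genes tested were higher. None was lower in edgeR's quasi-likelihood test, with or without adjustment of the p-value, or in DESeq2, when 14.5% of all genes were lower. The log2 fold change was positive for 45 of the 51, with a median of 0.23 beside 0.01 for all genes. In 32 genes the 3 IR libraries were all above the 3 untreated libraries, which was so for 23.8% of all genes, and in none were they all below (23.3% of all genes). Summed over the 51 genes, the level was 5460 to 5566 CPM without treatment and 6252 to 6537 CPM after IR. Without IR replicate 3, 25 of the 51 were higher, when 12.4% of all genes were, and without untreated replicate 1, 2 or 3 or IR replicate 2 the count was 15, 17, 18 and 18, when 8.91%, 9.35%, 10.2% and 11.1% of all genes were higher. With effective length as an offset, which allows for a change in the mix of transcripts, it was 13, when 5.82% of all genes were higher. CPM is a share of each library, so that a change in RNA per cell and a change in the mix of cells cannot be told apart.

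**Figure D1:**
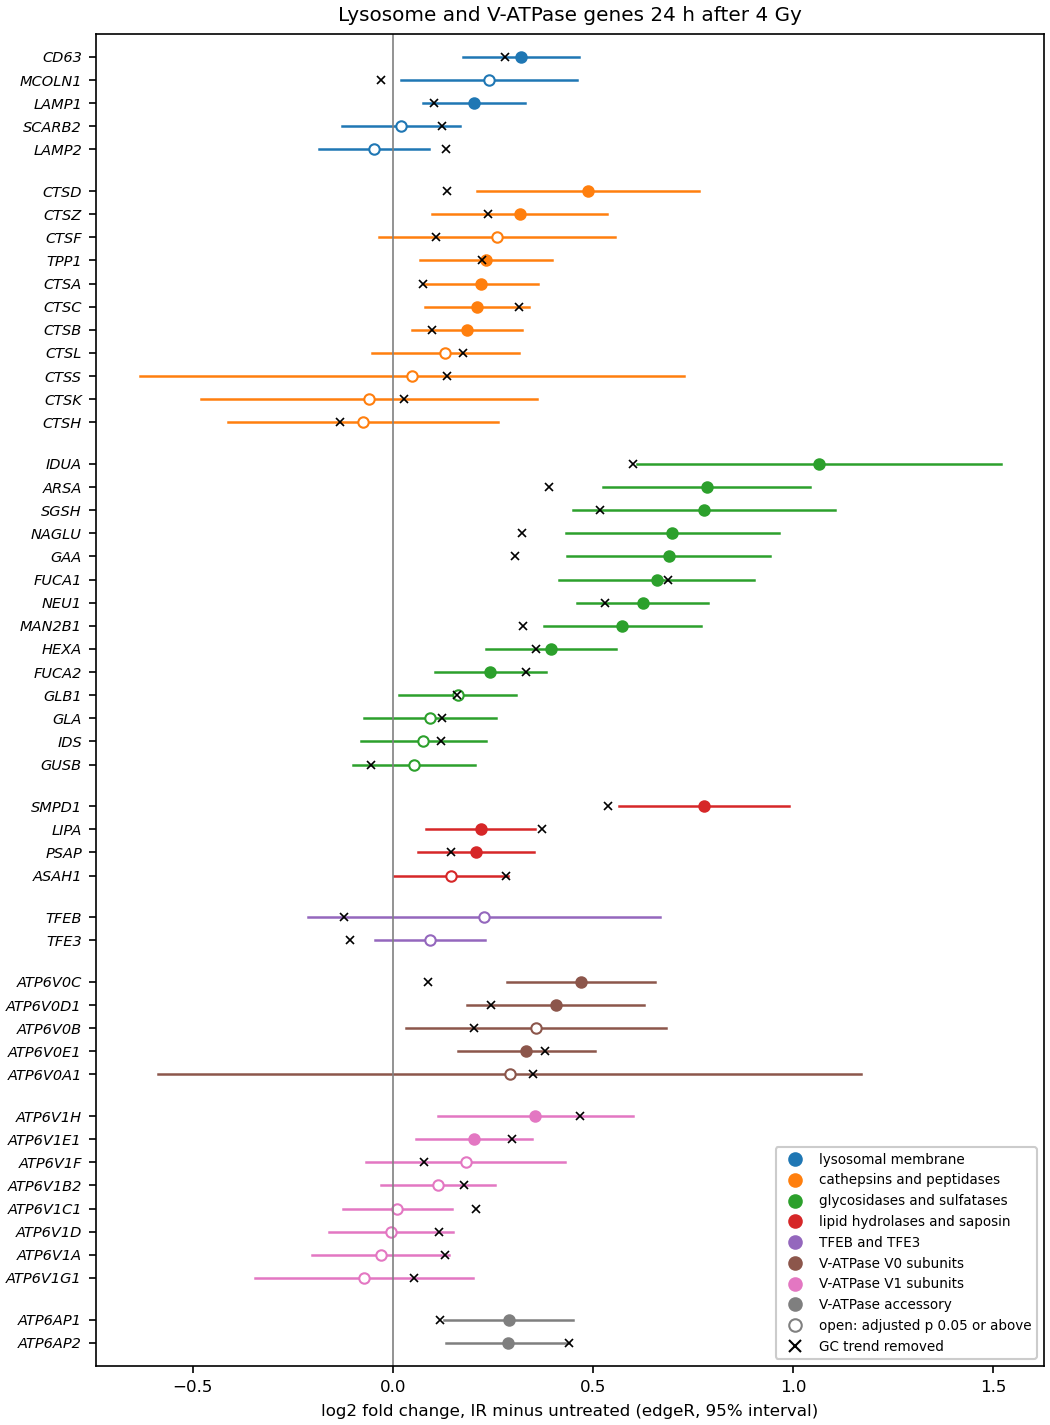
Log2 fold change of each gene, IR minus untreated, with its 95% interval (x axis), grouped by function (y axis, colours). Filled circles have an adjusted p-value under 0.05 and crosses give the fold change after the GC trend of each library was removed; the glycosidases and sulfatases reach 1.06, while most V1 subunits lie near 0.

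Genes rich in G and C were higher in the IR libraries throughout the transcriptome, and the lysosomal genes were richer in GC than most (median 52.2% against 48.6%). Over all genes the median log2 fold change went from -0.19 in the eighth with the lowest GC content to 0.34 in the eighth with the highest. Within the eighth of highest GC content, the 10 lysosomal genes had a median of 0.63. Over the 51 genes the fold change and GC content had r = 0.67 (rho = 0.64), as a description of genes that share the same 6 libraries. After the trend was removed from each library r was -0.02, the median log2 fold change of the 51 genes was 0.18, and 21 were higher (41.2%) when 11.7% of all genes were. Their calls were not the same: 9 genes lost theirs (LAMP1, CTSA, CTSB, CTSD, CTSZ, IDUA, PSAP, ATP6V0C and ATP6AP1) and 2 gained one (ASAH1 and ATP6V1C1). Whether the GC trend is technical was not tested.

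**Figure D2:**
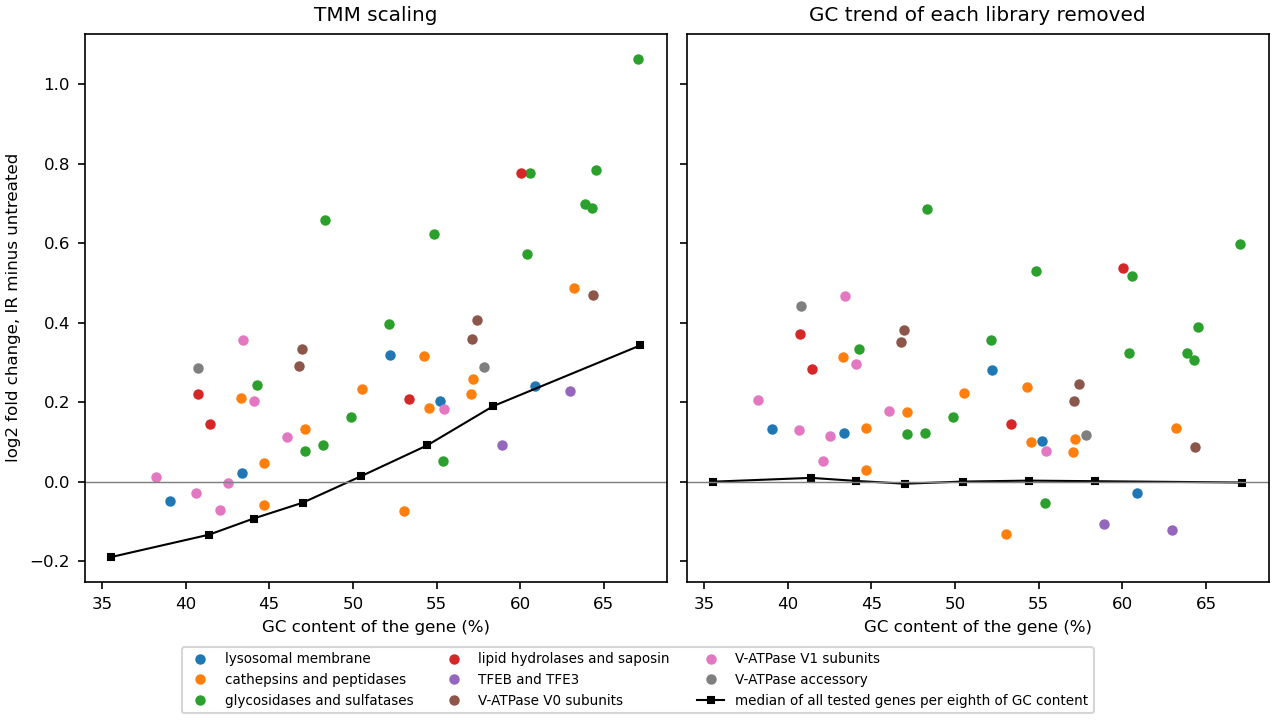
Log2 fold change (y axis) against GC content of the gene in percent (x axis) for the 51 genes, with TMM scaling on the left and with the GC trend of each library removed on the right. The black line joins the medians of all tested genes in eighths of GC content, which go from -0.19 to 0.34 on the left and lie near 0 on the right, where most lysosomal genes stay above the line.

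Of the 14 glycosidases and sulfatases, the enzymes that degrade glycans, 10 were higher (71.4%, against 15.5% of all genes), with a median log2 fold change of 0.60. After the GC trend was removed 9 were higher (64.3%, against 11.7% of all genes), with a median of 0.33. The called genes were IDUA, ARSA, SGSH, NAGLU, GAA, FUCA1, NEU1, MAN2B1, HEXA and FUCA2. Of these, ARSA, FUCA1, GAA, HEXA, MAN2B1, NAGLU, NEU1 and SGSH, together with the sphingomyelinase SMPD1, were called under all 15 alternative analyses, as no other of the 51 genes was.

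NEU1, the lysosomal sialidase, is at chr6:31857659-31862905 with 6 exons in its canonical transcript (GRCh38, here and below). Untreated libraries held it at 55.2, 57.8 and 50.3 CPM, and IR libraries at 80.0, 86.5 and 85.2 CPM. The groups were far apart and tight, and IR replicate 3 lay between the other IR libraries. The log2 fold change was 0.62 (SE 0.07, adjusted p = 0.000609), and it was 0.53 with the GC trend removed. These values are for the gene as a whole. Only 24.9% of its counts were on protein-coding transcripts, and 51.8% were on NEU1-208, annotated as subject to nonsense-mediated decay. The share of the canonical transcript was 38.5%, 35.1% and 25.5% in the untreated and 27.6%, 27.6% and 15.5% in the IR libraries. A rise of the protein-coding form was not tested.

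FUCA1, the fucosidase of glycoproteins and glycolipids (chr1:23845077-23868290, 8 exons), was at 8.84, 9.28 and 9.77 CPM without treatment and 13.4, 14.5 and 16.0 CPM after IR. Its groups did not overlap. Its GC content of 48.3% is close to the median of all genes, and its log2 fold change was 0.66 (SE 0.11, adjusted p = 0.00239) before and 0.69 after the GC trend was removed.

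ARSA, the sulfatase of sulfatide (chr22:50622754-50628173, 8 exons), went from 13.1, 15.2 and 15.7 CPM to 22.5, 23.7 and 29.1 CPM. Every IR library was above every untreated library, with IR replicate 3 the highest. The log2 fold change was 0.78 (SE 0.12, adjusted p = 0.00145), 0.64 without IR replicate 3, and 0.39 with the GC trend removed (GC content 64.5%).

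GAA, the acid glucosidase that breaks down glycogen (chr17:80101533-80119881, 20 exons), had untreated levels of 57.0, 60.8 and 48.8 CPM and IR levels of 80.5, 82.6 and 105 CPM. IR replicates 1 and 2 were close and replicate 3 was well above them. The log2 fold change was 0.69 (SE 0.11, adjusted p = 0.00236), 0.54 without IR replicate 3, and 0.31 with the GC trend removed.

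Heparan sulfate is taken apart by a series of exo-acting enzymes, of which SGSH, NAGLU, IDUA and IDS are among the 51. SGSH, the N-sulfoglucosamine sulfohydrolase, was at 16.1, 14.0 and 11.2 CPM and then 20.8, 21.7 and 27.7 CPM (log2 fold change 0.78, SE 0.15, adjusted p = 0.00426). NAGLU, the N-acetylglucosaminidase, was at 17.0, 15.0 and 14.9 CPM and then 21.4, 24.6 and 29.4 CPM (0.70, SE 0.12, adjusted p = 0.00272), with a change of 0.32 once the GC trend was removed. IDUA, the iduronidase, had the largest change of the 51, from 1.54, 1.69 and 1.86 CPM to 4.07, 3.16 and 3.45 CPM (1.06, SE 0.20, adjusted p = 0.00457). All 3 genes had groups that did not overlap. Without IR replicate 3 the changes were 0.62 for SGSH, 0.55 for NAGLU and 1.08 for IDUA. IDS, the iduronate sulfatase, was at 158 to 173 CPM and then 164 to 184 CPM, its groups overlapped, and its change of 0.08 (95% interval -0.08 to 0.23) did not pass the test. IDUA rests on 402 counts over the 6 libraries and was not called once the GC trend was removed (0.60, adjusted p = 0.0687). Only 12.8% of its counts were on protein-coding transcripts, and 41.1% were on IDUA-213, which has no defined coding sequence. A rise of its protein-coding form was not tested. The exons of IDUA overlap those of SLC26A1 on the other strand. Exons of SGSH likewise overlap SLC26A11 and CARD14 on the other strand, and whether reads were assigned by strand is not given in the sources used here.

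MAN2B1, the alpha-mannosidase, was at 33.3, 35.9 and 29.3 CPM and then 46.5, 47.6 and 52.2 CPM (0.57, SE 0.09, adjusted p = 0.00176, and 0.32 with the GC trend removed). HEXA, the alpha subunit of hexosaminidase, was at 73.0, 74.3 and 71.7 CPM and then 88.0, 96.3 and 104 CPM (0.40, SE 0.07, adjusted p = 0.00381, and 0.33 without IR replicate 3). FUCA2, the second fucosidase gene, was at 118 to 128 CPM and then 143 to 150 CPM (0.24, SE 0.06, adjusted p = 0.0163). In all 3 every IR library was above the untreated ones. MAN2B1 and HEXA share exons with read-through genes. GLB1, the beta-galactosidase used as a marker of senescent cells, was at 75.4, 77.5 and 76.5 CPM and then 84.4, 90.9 and 81.7 CPM. Its groups did not overlap, yet its change of 0.16 (SE 0.07) had an adjusted p of 0.0868, and of the 15 alternatives it was called without IR replicate 3 alone (0.19, adjusted p = 0.0419). GLA, the alpha-galactosidase, and GUSB, the beta-glucuronidase, had changes of 0.09 and 0.05 and did not pass the test.

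**Figure D3:**
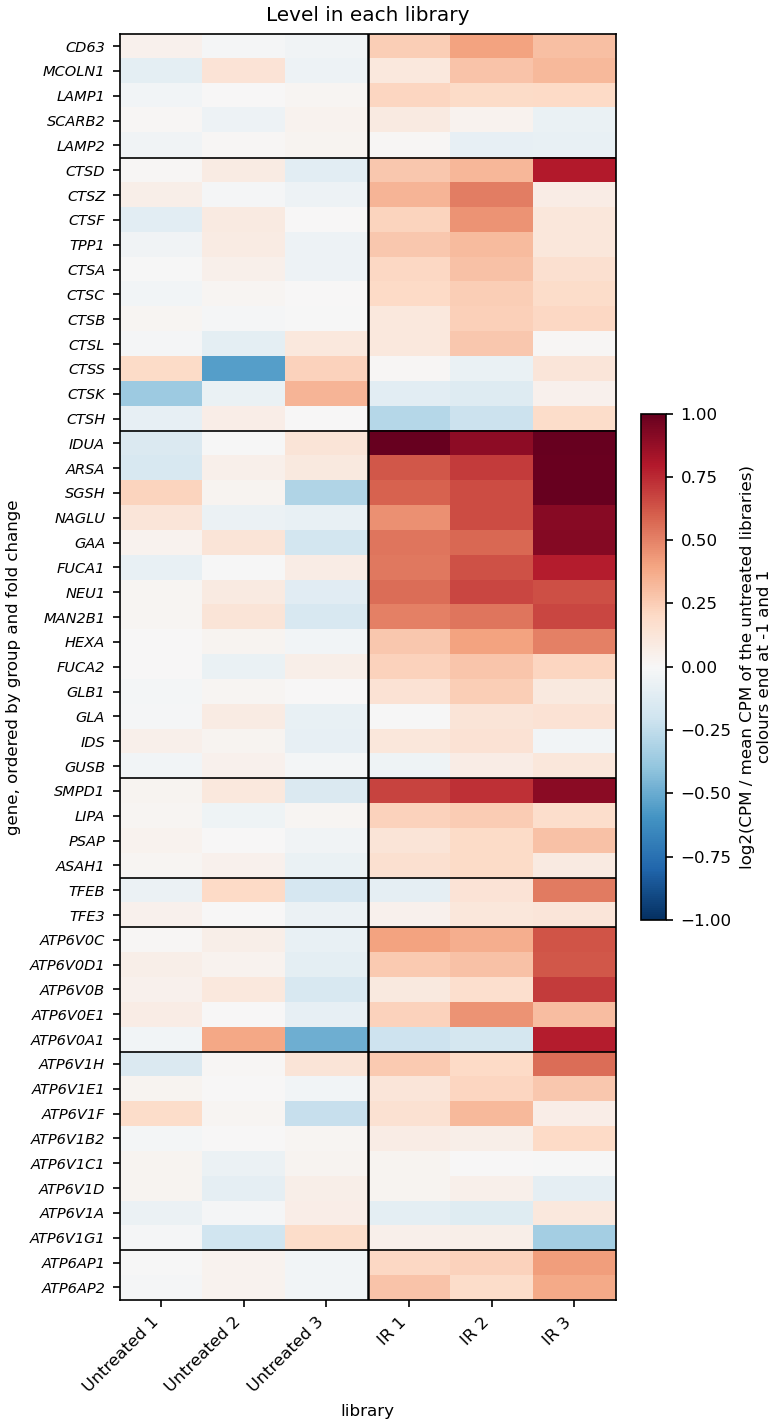
Level of each gene (y axis, ordered by group and fold change) in each of the 6 libraries (x axis), as the log2 ratio of its CPM to the mean of the untreated libraries. The glycosidases and sulfatases from IDUA to HEXA and SMPD1 are higher in all 3 IR libraries, and CTSD and ATP6V0B are highest in IR replicate 3.

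Of the 4 genes for lipid breakdown 3 were higher (75%, against 15.5% of all genes), and again 3 with the GC trend removed (against 11.7%). The count was 1 (25%) with effective length as an offset or the replicate block, when 5.82% and 12.1% of all genes were higher. It was also 1 without untreated replicate 1, untreated replicate 2 or IR replicate 2, against 8.91%, 9.35% and 11.1%. Without untreated replicate 3, IR replicate 1 or IR replicate 3 it was 2, against 10.2%, 14.6% and 12.4%. SMPD1, the acid sphingomyelinase that makes ceramide (chr11:6390440-6394998, 6 exons), had untreated levels of 19.2, 20.2 and 17.0 CPM and IR levels of 30.01, 31.1 and 35.2 CPM. No library of one group reached the other. Its log2 fold change was 0.78 (SE 0.10, adjusted p = 0.000684), 0.69 without IR replicate 3, and 0.54 with the GC trend removed. LIPA, the acid lipase of cholesteryl esters, was at 75.6 to 79.1 CPM and then 88.1 to 92.7 CPM (0.22, SE 0.06, adjusted p = 0.0233). PSAP, the precursor of the saposins that present lipids to the hydrolases, was at 851 to 890 CPM and then 954 to 1070 CPM (0.21, SE 0.06, adjusted p = 0.0357). PSAP was not called without IR replicate 3 (0.15, adjusted p = 0.0533) or with the GC trend removed (0.15, adjusted p = 0.0678). LIPA was called under 9 of the 15 alternatives and PSAP under 6. ASAH1, the acid ceramidase, was at 87.6 to 94.4 CPM and then 97.2 to 104 CPM, without overlap, with a change of 0.14 (adjusted p = 0.115) that became 0.28 (adjusted p = 0.0076) once the GC trend was removed. Its GC content is 41.4%.

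Of the 11 cathepsins and peptidases 6 were higher (CTSA, CTSB, CTSC, CTSD, CTSZ and TPP1), with a median log2 fold change of 0.21 over the group. These 6 were 54.5%, against 15.5% of all genes. With the GC trend removed 2 of 11 (CTSC and TPP1) were higher (18.2%, against 11.7% of all genes). The count of 6 rested on single libraries. It was 1 of 11 (9.09%) without untreated replicate 1, untreated replicate 2 or IR replicate 2. This is near the 8.91%, 9.35% and 11.1% of all genes that were higher in those fits. The count was 3 (27.3%) without IR replicate 1 and 5 (45.5%) without IR replicate 3, against 14.6% and 12.4% of all genes. Without untreated replicate 3 edgeR called 0 of the 11 higher, when 10.2% of all genes were, with 6 higher at an unadjusted p-value under 0.05. CTSD, the aspartic protease, was at 123, 129 and 113 CPM without treatment and 146, 153 and 211 CPM after IR. Its groups did not overlap, but IR replicate 3 stood far above the others. The log2 fold change was 0.49 (SE 0.12, adjusted p = 0.016), 0.29 without that library (adjusted p = 0.00937), and 0.14 with the GC trend removed (adjusted p = 0.223). CTSZ, a carboxypeptidase, went the other way, with 230 to 248 CPM and then 301, 339 and 250.9 CPM, so that IR replicate 3 was close to the untreated libraries. Its change was 0.32 (SE 0.10, adjusted p = 0.0355), and 0.42 without IR replicate 3.

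CTSC, which activates serine proteases by removing dipeptides, was at 209, 216 and 213 CPM and then 244, 252 and 242 CPM. These groups were tight and separate. The change was 0.21 (SE 0.06, adjusted p = 0.0226), and 0.31 with the GC trend removed. TPP1, the tripeptidyl peptidase, was at 120 to 132 CPM and then 134 to 155 CPM (0.23, adjusted p = 0.0389). CTSA, the protective protein that holds NEU1 and GLB1 in a complex, was at 136 to 145 CPM and then 157 to 172 CPM (0.22, adjusted p = 0.0274), which fell to 0.07 (adjusted p = 0.441) with the GC trend removed. CTSB, a cysteine protease, was at 295 to 301 CPM and then 319 to 351 CPM (0.19, adjusted p = 0.0465), close to the threshold. CTSL, also a cysteine protease, had overlapping groups at 228 to 262 CPM and 245 to 294 CPM (0.13, 95% interval -0.05 to 0.32). CTSF, CTSH, CTSK and CTSS had log2 fold changes between -0.07 and 0.26 and did not pass the test. CTSS, the protease of antigen-presenting cells, was at 0.624 to 1.08 CPM, and CTSK, the collagenase of osteoclasts, at 4.17 to 6.79 CPM.

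Of the membrane proteins LAMP1 and CD63 were higher (40%, against 15.5% of all genes) and LAMP2, SCARB2 and MCOLN1 were not called. CD63, a tetraspanin of late endosomes and exosomes, was at 333, 321 and 316 CPM and then 384, 428 and 398 CPM. The groups did not overlap. The change was 0.32 (SE 0.06, adjusted p = 0.00588), and 0.28 with the GC trend removed. LAMP1 was at 408, 416 and 421 CPM and then 481, 473 and 477 CPM, a small and even difference of 0.20 (SE 0.06, adjusted p = 0.0243), which was 0.10 (adjusted p = 0.221) with the GC trend removed. LAMP2, its relative and a receptor in chaperone-mediated autophagy, was at 139, 144 and 146 CPM and then 144, 135 and 136 CPM. These overlapped, and the change of -0.05 had a 95% interval of -0.18 to 0.09. SCARB2, the receptor that carries glucocerebrosidase to lysosomes, was at 199 to 211 CPM and then 196 to 220 CPM (0.02, 95% interval -0.13 to 0.17). MCOLN1 was at 15.3, 18.1 and 15.9 CPM and then 17.7, 19.98 and 20.5 CPM (0.24, adjusted p = 0.091), and -0.03 with the GC trend removed. Its exons overlap those of PNPLA6.

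The V-ATPase genes were unequal: 7 of 15 were higher (46.7%), when 15.5% of all genes were. The 7 comprised 3 of 5 V0 subunits, 2 of 8 V1 subunits and both accessory proteins. The median log2 fold change was 0.36 for V0 and 0.06 for V1. After the GC trend was removed these medians were 0.25 and 0.15, with 2 of 5 V0 and 3 of 8 V1 subunits higher, against 11.7% of all genes. The difference between the sectors was then smaller, and it was not tested. Their GC contents differed, with the 5 V0 genes at 46.8% to 64.3% and 7 of the 8 V1 genes at 38.2% to 46.1%. The summed level of the 15 genes was 1034 to 1046 CPM in the untreated and 1150 to 1262 CPM in the IR libraries, with the highest sum in IR replicate 3. Without IR replicate 3, 5 of 15 were called (33.3%, against 12.4% of all genes higher), all V0 subunits or accessory proteins. Without untreated replicate 1 it was 3 (20%, against 8.91% of all genes).

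In the V0 sector, ATP6V0C, the main proteolipid of the rotor ring, was at 61.3, 63.6 and 57.9 CPM and then 80.4, 78.2 and 94.0 CPM. All IR libraries were above the untreated ones. The change was 0.47 (SE 0.08, adjusted p = 0.00318), 0.37 without IR replicate 3, and 0.09 (adjusted p = 0.265) with the GC trend removed. ATP6V0D1, which couples the ring to the central stalk, was at 56.3, 55.3 and 50.7 CPM and then 64.9, 66.4 and 83.1 CPM (0.41, SE 0.10, adjusted p = 0.0132). It was 0.27 (adjusted p = 0.013) without IR replicate 3, which was the highest, 0.25 (adjusted p = 0.0317) with the GC trend removed, and not called with effective length as an offset (0.18, adjusted p = 0.235). ATP6V0E1, a small membrane subunit, was at 62.5, 59.7 and 56.4 CPM and then 69.9, 81.4 and 73.7 CPM (0.33, SE 0.08, adjusted p = 0.0105), and 0.38 with the GC trend removed. ATP6V0B, the second proteolipid, was at 54.0, 56.5 and 47.0 CPM and then 56.3, 58.9 and 85.4 CPM. Here the groups overlapped and IR replicate 3 carried most of the difference: the change was 0.36 (adjusted p = 0.089) with it and 0.12 (adjusted p = 0.283) without it.

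The large a subunit, which forms the proton half-channels and directs the pump to different membranes, is encoded by 4 genes. ATP6V0A1, the form listed among the 51, was barely detected, at 0.440 to 1.06 CPM, and only 0 to 3.83 of its 9.05 to 48.3 counts per library were assigned to protein-coding transcripts. TCIRG1, the form of osteoclast and lysosomal pumps, was at 19.99, 23.5 and 26.8 CPM and then 34.1, 33.8 and 44.7 CPM, without overlap (0.69, SE 0.13, adjusted p = 0.00467, and 0.27, adjusted p = 0.0635, with the GC trend removed). Without IR replicate 3 its change was 0.52 (adjusted p = 0.00447). ATP6V0A2, the form of the Golgi, was at 24.3 to 27.2 CPM and then 21.0 to 23.9 CPM, with all IR libraries below the untreated ones and a change of -0.19 (adjusted p = 0.117). In TPM, the deposited transcript values that are divided by length and scaled to a total of 1000000 per library, the untreated means were 13.9 ± 1.42 for TCIRG1, 10.95 ± 0.308 for ATP6V0A2, 1.08 ± 0.837 for ATP6V0A4 and 0.595 ± 0.196 for ATP6V0A1 (SD, n = 3). The first pair differed by more than its spread and the second pair did not. ATP6V0A2 and ATP6V0A4 were named after their values were seen.

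In the V1 sector, ATP6V1H, the regulatory subunit that links to the stalk, was at 26.3, 29.3 and 31.8 CPM and then 34.9, 33.4 and 43.0 CPM (0.36, SE 0.11, adjusted p = 0.0339), and 0.22 (adjusted p = 0.0882) without IR replicate 3. ATP6V1E1, of the peripheral stalk, was at 81.6 to 84.8 CPM and then 90.4 to 100 CPM (0.20, adjusted p = 0.0399), and 0.16 (adjusted p = 0.0797) without it. The subunits of the catalytic hexamer were not called. ATP6V1A, which holds the ATP-hydrolysing site, was at 78.8, 81.1 and 85.8 CPM and then 76.7, 75.4 and 88.0 CPM, with a change of -0.03 (95% interval -0.20 to 0.14). ATP6V1B2, its partner in the hexamer, was at 96.4 to 98.8 CPM and then 102 to 112 CPM, without overlap (0.11, adjusted p = 0.205). ATP6V1C1, ATP6V1D, ATP6V1F and ATP6V1G1, subunits of the stalks, had changes between -0.07 and 0.18 that did not pass the test.

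ATP6V1A gave another picture per length. Its level per length was 38.8, 43.8 and 41.6 TPM in the untreated and 28.9, 23.6 and 29.3 TPM in the IR libraries, without overlap. Its mean effective length went from 2374 to 2621 bases in the untreated libraries to 3301 to 3988 bases in the IR libraries. Its main form, ATP6V1A-201, was at 70.5 to 75.2 CPM and then 73.4 to 93.3 CPM, while ATP6V1A-206 was at 5.94, 7.37 and 6.67 CPM and then at 2.41, 1.63 and 0 CPM. The use of its transcripts was not called by edgeR's diffSpliceDGE, and the levels of ATP6V1A-206 are given as values alone. With effective length as an offset it was lower (log2 fold change -0.56, adjusted p = 0.013), when 6.11% of all genes were, and it was the 1 gene of the 51 called lower in any of the 15 alternatives. These transcripts were named after their values were seen.

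Both accessory proteins were higher. ATP6AP1, which assists assembly of V0, was at 123, 126 and 121 CPM and then 143, 145 and 165 CPM (0.29, SE 0.07, adjusted p = 0.0145). Its change was 0.21 (adjusted p = 0.0235) without IR replicate 3 and 0.12 (adjusted p = 0.133) with the GC trend removed. ATP6AP2, the prorenin receptor, was at 120, 124 and 119 CPM and then 147, 137 and 158 CPM (0.29, SE 0.07, adjusted p = 0.0122), and 0.44 with the GC trend removed. The groups of both were separate.

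TFEB and TFE3 themselves were not called. TFEB was at 3.95, 4.73 and 3.66 CPM and then 3.87, 4.52 and 5.91 CPM (0.23, 95% interval -0.21 to 0.67), and TFE3 at 171, 166 and 159 CPM and then 170, 179 and 180 CPM (0.09, 95% interval -0.04 to 0.23). Both groups overlapped, and both changes were below 0 with the GC trend removed (-0.12 and -0.11). Without IR replicate 3 the changes were 0.01 for TFEB and 0.07 for TFE3. Per length, TFE3 was at 52.3 ± 2.56 TPM and TFEB at 1.85 ± 0.301 TPM in the untreated libraries (SD, n = 3), so that TFE3 RNA was the more abundant. These are RNA levels and say nothing of where the proteins were. Among genes with a promoter in the table, 7 of the 20 that were higher held CACGTG (35%) and 4 of the 16 others did (25%). The median log2 fold change was 0.32 for the 11 genes with the motif and 0.22 for the others, and 0.14 and 0.17 with the GC trend removed, so that the order turned.

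The levels per length spanned a wide range. CD63 was the most abundant of the 51 in the untreated libraries (585 ± 27.6 TPM), followed by PSAP (530 ± 18.7 TPM), with no overlap between their libraries. CTSL (288 ± 42.7 TPM) and CTSC (287 ± 20.7 TPM) came next and did not differ beyond their spread. Among V-ATPase genes ATP6V1D (213 ± 22.4 TPM) was the highest, then ATP6V1E1 (129 ± 4.71 TPM) and ATP6V0E1 (127 ± 14.5 TPM), which did not differ beyond their spread. At the low end were TFEB, IDUA (1.75 ± 0.811 TPM), CTSS (1.15 ± 0.312 TPM) and ATP6V0A1. Genes with larger changes were at lower levels, of which NEU1 was at 23.7 ± 1.45, GAA at 18.3 ± 1.55, SMPD1 at 11.6 ± 1.46 and ARSA at 4.94 ± 0.394 TPM. The V-ATPase genes made up 26.0 ± 0.222% of the summed TPM of the 51 genes in the untreated and 24.5 ± 0.746% in the IR libraries (SD, n = 3).

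Splice forms were less certain than genes. Counts of transcripts scattered more between libraries than those of genes (biological coefficient of variation 0.737 against 0.0931), and 9 of the 51 genes had under 50% of their counts on protein-coding transcripts. The use of transcripts differed in 4 of 47 genes tested (TFEB, ATP6AP2, TFE3 and IDS), when 2.68% of all 10664 genes did. In TFEB the protein-coding transcript TFEB-215 had untreated levels of 1.84, 3.03 and 1.70 CPM and was at 0 in all IR libraries, while TFEB-206 was at 0 and then at 1.55, 1.85 and 2.72 CPM. Both forms rest on few reads. In ATP6AP2 the protein-coding form ATP6AP2-226 was at 34.5, 15.5 and 14.2 CPM and then at 0. The TFE3 and IDS calls came from forms with no defined coding sequence, below 1 CPM in every library. With 1 library left out at a time 0 to 3 of 48 genes were called, and TFE3 and IDS were in none of these. Over all genes 228 to 444 were called in those fits, of 11015 to 11133 tested. ATP6AP2 was called without untreated replicate 1, 2 or 3, and TFEB without IR replicate 2. Without IR replicate 3 edgeR's diffSpliceDGE called 0, with 7 at an unadjusted Simes p-value under 0.05. LAMP2, whose splice forms differ in their tails, kept LAMP2-202 as its main form, at 101 to 107 CPM and then 98.5 to 108 CPM. LAMP2-201 was at 14.4 to 15.6 and then 12.8 to 15.2 CPM, and LAMP2-203 at 0 to 1.62 and then 1.45 to 2.41 CPM. LAMP2-202 held 73.4% of the counts of the gene, and protein-coding forms together 84.9%. Levels of a further form, LAMP2-204, are not given here.

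Beyond the 51, 110 further genes of the lysosome were examined in 5 lists, of which 108 were tested. Of these 34 were higher (31.5%) and 7 lower (6.48%), against 15.5% and 14.5% of all genes, with a median log2 fold change of 0.16. With the GC trend removed 30 were higher (27.8%, against 11.7% of all genes). With effective length as an offset 9 were (8.33%, against 5.82% of all genes). Further hydrolases and their activators had 11 of 26 higher (42.3%) and none lower (none lower at an unadjusted p-value under 0.05 or by DESeq2 either). The count was 12 (46.2%) with the GC trend removed and 3 (11.5%) with effective length as an offset, against 11.7% and 5.82% of all genes. PLD3, an exonuclease of single-stranded nucleic acids, was at 49.5 to 52.5 CPM and then 69.1 to 78.9 CPM (0.50, adjusted p = 0.00151, and 0.21 with the GC trend removed). PPT2, a thioesterase, was at 20.1 to 27.1 CPM and then 32.8 to 33.3 CPM (0.49, adjusted p = 0.00685), and RNASET2, the acid ribonuclease, at 10.6 to 11.6 CPM and then 14.1 to 16.9 CPM (0.47, adjusted p = 0.00886). In all 3 the groups were separate.

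Further membrane and transport genes had 8 of 27 higher (29.6%, against 15.5% of all genes) and none lower (also none by DESeq2 or at an unadjusted p-value under 0.05). The count was 11 (40.7%) with the GC trend removed and 2 (7.41%) with effective length as an offset, against 11.7% and 5.82% of all genes. NPC2, which hands cholesterol out of the lumen, was at 98.5 to 104 CPM and then 129, 148 and 156 CPM (0.52, adjusted p = 0.00146), and 0.52 with the GC trend removed. CLCN7, the chloride-proton exchanger, was at 25.0, 19.7 and 23.7 CPM and then 30.6, 37.1 and 74.5 CPM. IR replicate 3 was far above the others, and the change of 1.08 (adjusted p = 0.0159) was 0.56 (adjusted p = 0.00403) without it. CD68, the macrosialin of late endosomes, was at 6.60 to 9.33 CPM and then 11.3 to 16.7 CPM (0.67, adjusted p = 0.0189), and was not called with the GC trend removed (0.51, adjusted p = 0.0592). CD68 also marks macrophages, whose marker CD14 held 13 counts over all libraries.

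Of 15 genes listed for the sorting of hydrolases 2 were higher (13.3%) and 2 lower (13.3%), near the 15.5% and 14.5% of all genes. The list was drawn up around mannose 6-phosphate but also held SUMF1, AP3B1, AP3D1 and SORT1, so its count is not of that route alone. SUMF1, which activates the sulfatases, was at 14.9 to 18.4 CPM and then 20.1 to 21.6 CPM (0.38, adjusted p = 0.0174), and AP1S1, of the AP-1 coat, at 100 to 109 CPM and then 120 to 134 CPM (0.28, adjusted p = 0.0125). GNPTAB, the phosphotransferase that makes the sorting tag, was at 61.9, 61.0 and 61.1 CPM and then 48.9, 46.3 and 44.8 CPM, so that it fell by 0.39 on the log2 scale (SE 0.07, adjusted p = 0.0024). AP1G1, another AP-1 subunit, fell by 0.24 (adjusted p = 0.0275). Neither AP-1 gene was called with the GC trend removed (AP1S1 0.16, adjusted p = 0.0781, and AP1G1 -0.13, adjusted p = 0.182).

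Of 15 other V-ATPase subunits and assembly factors tested 3 were higher (20%; TCIRG1, VMA22 and VMA21) and 3 lower (20%), against 15.5% and 14.5% of all genes, and with the GC trend removed 1 and 2 were. VMA22 and VMA21, assembly factors of the endoplasmic reticulum, had changes of 0.28 and 0.23, and neither was called without IR replicate 3 (0.24, adjusted p = 0.0681, and 0.16, adjusted p = 0.115). WDR7, DMXL1 and DMXL2, of the complex that joins V1 to V0, were lower. WDR7 was at 20.9 to 21.9 CPM and then 13.1 to 15.5 CPM (-0.60, adjusted p = 0.00165), DMXL1 at 48.0 to 50.8 CPM and then 30.7 to 38.3 CPM (-0.54, adjusted p = 0.00229), and DMXL2 at 59.5 to 67.4 CPM and then 44.6 to 54.0 CPM (-0.40, adjusted p = 0.00825). None of the 3 had overlapping groups. With the GC trend removed, WDR7 (-0.51) and DMXL1 (-0.35) were still called and DMXL2 was not (-0.22, adjusted p = 0.0577). With effective length as an offset edgeR called none of the 3: WDR7 was at -0.53 (adjusted p = 0.141), DMXL1 at -0.36 (adjusted p = 0.17) and DMXL2 at 0.13 (adjusted p = 0.516).

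Of 25 genes for mTORC1 and the control of TFEB at the lysosome 10 were higher (40%) and 2 lower (8%), against 15.5% and 14.5% of all genes. The count of higher genes was 5 (20%) with the GC trend removed, when 11.7% of all genes were higher. With effective length as an offset it was 3 (12%), against 5.82% of all genes. It was 5, 3, 4 and 5 without untreated replicate 1, 2 or 3 or IR replicate 2. Those were 20%, 12%, 16% and 20%, when 8.91%, 9.35%, 10.2% and 11.1% of all genes were higher. TFEC, a member of the MITF and TFEB family, had the largest change, from 1.65, 1.65 and 1.76 CPM to 5.95, 5.66 and 5.62 CPM. Replicates were tight in both groups. The log2 fold change was 1.77 (SE 0.17, adjusted p = 0.000253), 1.77 without IR replicate 3 and 1.99 with the GC trend removed. It rests on 584 counts in all. RRAGD, a Rag GTPase, was at 8.83 to 10.1 CPM and then 12.2 to 12.6 CPM (0.42, adjusted p = 0.0158). LAMTOR4, a subunit of the Ragulator scaffold, was at 26.1 to 28.2 CPM and then 28.9, 36.5 and 48.4 CPM (0.48, adjusted p = 0.0389), and 0.25 (adjusted p = 0.0859) without IR replicate 3. TSC1, of the complex that restrains mTORC1, fell by 0.26 (adjusted p = 0.0178), and DEPDC5, of GATOR1, fell by 0.29 (adjusted p = 0.0498). A log2 fold change of TSC1 past the threshold was not found without untreated replicate 2 (-0.20, adjusted p = 0.0964) or IR replicate 2 (-0.26, adjusted p = 0.0522). DEPDC5, close to the threshold, was called without untreated replicate 1 or IR replicate 1, but was lost without each of the other 4 libraries, IR replicate 3 among them (-0.26, adjusted p = 0.0902), and with the GC trend removed (-0.28, adjusted p = 0.0585).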

How the data were processed

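Bulk RNA-seq of 3 untreated and 3 IR (4 Gy, 24 h) samples of U-2 OS cells was analysed, grouped by the sample titles. The authors assigned reads with kallisto to GENCODE release 37 and deposited an estimated count, a TPM value, a length and an effective length per transcript. Estimated counts were deposited without normalization. The TPM values were computed by the authors from effective length and library total. The study's methods name a total RNA kit and the sample labels an mRNA kit. For 158591 of 161048 transcripts the identifier was found in GENCODE release 44, and their counts were added up by gene and rounded. Genes kept by filterByExpr were scaled by TMM and tested with edgeR 4.0.16 (glmQLFit, glmQLFTest; R 4.3.3, limma 3.58.1), with Benjamini-Hochberg adjustment over all genes and a threshold of 0.05. The SE is the size of the log2 fold change divided by the root of F, and intervals are at 95%. CPM values are TMM-scaled. Use of transcripts was tested with diffSpliceDGE and the Simes method. Motifs were searched in RefSeq promoters of GRCh38.p14. The fits were tested on simulated data. Alternatives were DESeq2 1.42.0 (size factors; Wald test), edgeR's likelihood ratio test, other filters, the replicate number as a block, removal of each library's GC trend (lowess), effective length as an offset, and leaving out each library. The genes and lists were chosen with earlier results of these data known. All 51 genes could be named, and from each further list the called genes with the largest changes, up to 3 in each direction. The single-cell and imaging experiments of the study were not analysed here.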

Additional observations from a re-analysis of the deposited data

How the results depend on the processing

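With effective length as an offset, 13 of the 51 genes were higher (25.5%) and 1 lower (1.96%), against 5.82% and 6.11% of all genes. Of the 15 V-ATPase genes 2 were higher (13.3%) and 1 lower (6.67%), and of 29 hydrolase genes 11 were higher (37.9%). Of the 108 further genes tested 9 were higher (8.33%) and 1 lower (0.926%). DMXL2 then turned from -0.40 to 0.13 (adjusted p = 0.516). Over all genes this offset called 833 higher and 875 lower, against 2227 and 2080. With the GC trend removed, with or without the replicate block, 4 further genes were lower (3.7%). Over all genes 12.6% were lower without the block and 11.2% with it. TCACGTGA was in 6 promoters and its 10-base extension in 3, in place of 11 with CACGTG.

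Untreated and IR libraries of the same number did not deviate together (correlations -0.02, 0.01 and -0.05). The labels do not say whether they were prepared together, and these values cannot decide it. With the replicate block 19 of the 51 genes (12.1% of all genes) and 12 hydrolase genes were higher. Use of transcripts then differed in 1 of 47 genes (TFE3), when it did in 149 of all 10664. With at least 10 counts in every library it differed in 1 of 38 (CD63), when it did in 65 of all 8588. Leaving out 1 library at a time, 15 to 25 of the 51 genes, 3 to 8 V-ATPase genes, 11 to 18 hydrolase genes and 17 to 35 further genes were higher, 4 to 8 further genes were lower, and use of transcripts differed in 0 to 3 genes. Over all genes 8.91% to 14.6% were higher and 8.57% to 15.7% lower in these fits, and use of transcripts differed in 228 to 444 genes. The 51-gene count was lowest without untreated replicate 1, at 15 (29.4%), when 8.91% of all genes were higher. It was 17 without untreated replicate 2, 18 without untreated replicate 3 and 18 without IR replicate 2. Apart from DMXL2, no named gene that was called changed sign. With 3 libraries a group, log2 differences under about 0.2 mostly did not pass the test, and genes such as CTSS and ATP6V0A1 rest on 135 and 107 counts.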
